A study of Homo sapiens with 6 samples.

Results

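P-TEFb is the kinase complex that lets RNA polymerase II leave its pause near the start of a gene. It is made of the kinase CDK9 and a cyclin T subunit, CCNT1 or CCNT2. Much of it is held inactive on the 7SK small nuclear RNA by the inhibitor proteins HEXIM1 and HEXIM2, while LARP7 binds and stabilises that RNA and MEPCE caps its end. HEXIM1 transcript is known as a marker of the response to BET inhibitors. The 7 genes were chosen by symbol, and all 7 were found among the 27420 genes for which expression values were deposited. The 7SK RNA itself is of a gene class not listed there and was not analysed here.

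RNA was sequenced from A673 and SKNMC, established Ewing sarcoma cell lines that were grown in the same medium. Both were exposed to THZ1, which binds covalently to CDK7, the kinase of TFIIH, at 50 or 200 nM, or to DMSO, its solvent, and harvested after 6 h. Each of the 6 conditions has 1 library, so the spread between replicates is unknown, and values are described without a test. Levels are in FPKM, fragments relative to the length of the transcript and the size of the library. The sum of the listed FPKM in the THZ1 libraries was 97.8% to 100.5% of that in the DMSO library of the line.

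The Ewing sarcoma markers were present in both lines. All 7 of them, CD99, NKX2-2, NR0B1, STEAP1, PRKCB, FLI1 and EWSR1, lay above 1 FPKM in all 6 libraries, and CD99 was the most abundant, at 504 FPKM in A673 and 313 FPKM in SKNMC with DMSO. Their summed levels with DMSO, 50 nM and 200 nM were 965, 986 and 1061 FPKM in A673 and 844, 739 and 632 FPKM in SKNMC. CD99 was the largest part of these sums, and most of the other markers did not follow it. From DMSO to 200 nM in A673, CD99 went from 504 to 763 FPKM and PRKCB from 47.9 to 63.9, whereas FLI1 went from 31.5 to 4.26, NR0B1 from 58.6 to 7.97, NKX2-2 from 14.8 to 3.60, STEAP1 from 175 to 104 and EWSR1 from 134 to 115 FPKM. In SKNMC the fall of the sum lay mostly in STEAP1, which went from 208 to 70.2 FPKM. There CD99 went from 313 to 346, PRKCB from 71.6 to 66.3, EWSR1 from 161 to 126, NKX2-2 from 37.6 to 11.4, NR0B1 from 25.2 to 8.10 and FLI1 from 27.3 to 4.56 FPKM. Of the blood markers, CD3E was listed at 0 in every library. PTPRC was at 10.2, 7.90 and 13.1 FPKM in the SKNMC libraries in order of dose and below 0.1 FPKM in those of A673. The epithelial marker KRT8 was at 11.0 to 14.2 FPKM, whereas CDH1 was below 0.1 FPKM and EPCAM below 1 FPKM throughout. The skeletal muscle markers MYOD1, MYOG and DES were below 0.1 FPKM, and the endothelial marker CDH5 reached 0.127 FPKM. The part of PTPRC in any difference between the lines was not tested.

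With DMSO the 7 genes spanned a wide range of levels. In A673 the order from high to low was MEPCE at 34.4 FPKM, CDK9 at 23.3, LARP7 at 21.2, CCNT1 at 12.1, CCNT2 at 11.0, HEXIM1 at 4.53 and HEXIM2 at 2.15 FPKM. In SKNMC it was MEPCE at 42.6 FPKM, LARP7 at 20.7, CDK9 at 20.3, HEXIM1 at 19.7, CCNT1 at 16.6, CCNT2 at 13.1 and HEXIM2 at 2.32 FPKM. Without replicates it cannot be said which neighbours in these orders differ. HEXIM1 changed its place between the lines: its level in SKNMC was 4.35 times that in A673, a size of difference larger than that of 96.5% of the 10574 genes above 1 FPKM in both. For the other 6 genes the ratio of SKNMC to A673 lay between 0.869 for CDK9 and 1.37 for CCNT1.

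**Figure D1:**
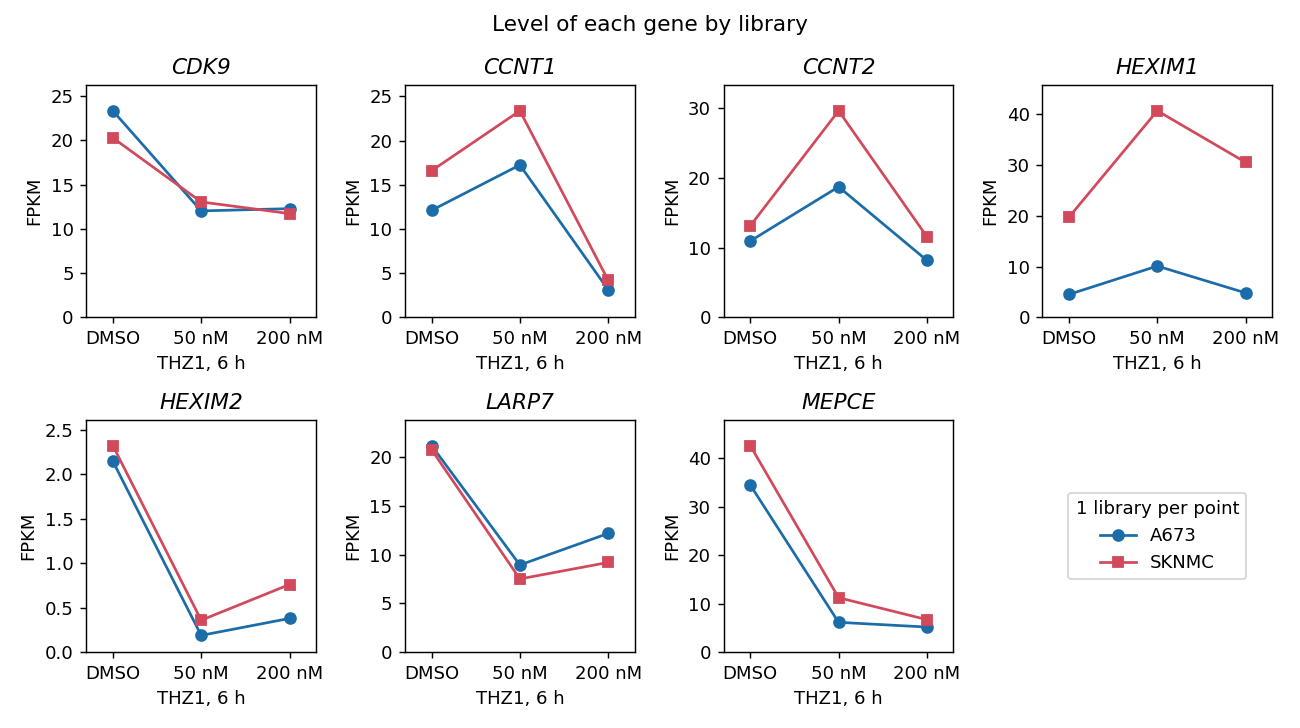
FPKM (vertical axis of each panel, from 0) of the 7 genes in the DMSO, 50 nM and 200 nM THZ1 libraries of A673 (circles) and SKNMC (squares), 1 library per point and lines joining the libraries of a cell line. CCNT1, CCNT2 and HEXIM1 peak at 50 nM in both lines, at 17.3, 18.7 and 10.1 FPKM in A673, while MEPCE is lower in every THZ1 library than with DMSO.

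CDK9, the catalytic subunit, was lower in each THZ1 library than with DMSO. A673 held 23.3 FPKM with DMSO, 12.0 FPKM at 50 nM and 12.3 FPKM at 200 nM. SKNMC held 20.3, 13.0 and 11.7 FPKM in the same order. The dose made little difference within a line. On the log2(FPKM + 1) scale, which is used for all fold changes and understates those of low genes, the changes were -0.90 and -0.87 in A673 and -0.60 and -0.74 in SKNMC at 50 and 200 nM. None of these reached 2-fold, although 3 of them did, at -1.11, -1.20 and -1.29, when libraries were scaled to their ribosomal protein genes (A673 at both doses and SKNMC at 200 nM). Scaling to the 75th percentile of genes above 1 FPKM with DMSO in both lines made the changes smaller. They were then -0.68 and -0.55 in A673 and -0.34 and -0.24 in SKNMC at 50 and 200 nM. With the deposited values, lower changes at 50 and 200 nM were found for many genes above 1 FPKM in the DMSO library. These were 18.7% and 29.7% of such genes in A673 and 32.7% and 39.5% in SKNMC.

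The cyclin subunits behaved otherwise. CCNT1 was at 12.1 FPKM with DMSO in A673, at 17.3 FPKM with 50 nM THZ1 and at 3.12 FPKM with 200 nM. The SKNMC libraries held 16.6, 23.4 and 4.20 FPKM. The level at 50 nM was thus above that with DMSO in both lines and the level at 200 nM was the lowest of the 3. The log2 changes at 50 nM were 0.48 in A673 and 0.47 in SKNMC, short of 2-fold and as low as 0.26 and 0.08 with the ribosomal protein scaling. At 200 nM CCNT1 fell, with log2 changes of -1.67 and -1.76, and its level at 50 nM was 5.52 times that at 200 nM in A673 and 5.56 times in SKNMC.

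CCNT2, the alternative cyclin, was at 11.0, 18.7 and 8.19 FPKM in A673 in order of dose. The SKNMC values were 13.1, 29.7 and 11.6 FPKM. Its peak at 50 nM was higher, and its level at 200 nM closer to that with DMSO, than for CCNT1. The log2 change at 50 nM was 0.72 in A673 and 1.12 in SKNMC, above 99.1% and 99.6% of active genes, which are those above 1 FPKM in the DMSO library of the line. With the ribosomal protein scaling the SKNMC value was 0.72 and no longer 2-fold. At 200 nM the changes were -0.38 and -0.17, and the second turned to 0.33 when libraries were scaled to the 75th percentile of active genes.

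The inhibitor genes HEXIM1 and HEXIM2 are neighbours. HEXIM1 (ENSG00000186834) lies on the plus strand at chr17:43224684-43229468 (hg19, the build of the deposited values) and HEXIM2 (ENSG00000168517) on the same strand at chr17:43238067-43247407, 8599 bases downstream. The canonical HEXIM1 transcript of GENCODE has 1 exon and no intron, whereas that of HEXIM2 has 4 exons and 6725 bases of intron. The sequences upstream of their starts are shown because the neighbouring genes moved in opposite directions at 50 nM. Each is the 250 bases before a RefSeq start (table of GRCh38.p14), matched without a difference to GRCh37, at chr17:43225592-43225841 for HEXIM1 and at chr17:43237291-43237540 for HEXIM2, plus strand. HEXIM2 has 2 such starts and the one nearer to the deposited start was taken. It still lies 526 bases before the deposited start of HEXIM2. The HEXIM2 window is thus wholly outside the deposited span of the gene. The capitals mark TATAAA and CCAAT, searched on both strands, so that ATTGG is CCAAT on the minus strand.
HEXIM1 promoter: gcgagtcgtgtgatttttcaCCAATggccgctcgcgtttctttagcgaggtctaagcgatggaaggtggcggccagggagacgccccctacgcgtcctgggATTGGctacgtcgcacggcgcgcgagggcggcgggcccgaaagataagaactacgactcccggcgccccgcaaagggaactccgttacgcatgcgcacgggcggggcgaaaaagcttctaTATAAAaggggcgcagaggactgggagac
HEXIM2 promoter: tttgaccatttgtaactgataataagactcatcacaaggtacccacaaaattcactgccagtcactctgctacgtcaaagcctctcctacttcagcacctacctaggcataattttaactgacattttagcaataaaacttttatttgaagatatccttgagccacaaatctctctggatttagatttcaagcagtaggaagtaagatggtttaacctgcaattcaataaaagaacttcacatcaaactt
The HEXIM1 window holds TATAAA from 29 to 24 bases before the start and CCAAT at 2 places, is 62.4% G and C and has 31 CG pairs. The HEXIM2 window holds neither motif, is 36.0% G and C and has 1 CG pair, against a median of 58.0% G and C over 35116 RefSeq promoters. TATAAA is found in 10.7% and CCAAT in 32.0% of those promoters over the same 250 bases. The HEXIM1 window lies within the deposited span of the gene, which begins 1158 bases before the RefSeq start, and 246 of its bases are in an exon of an antisense lncRNA. In the HEXIM2 window 2 bases are in an exon of HEXIM2-AS1. A match of letters is a description, and binding was not measured.

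HEXIM1 alone among the 7 genes lay above its DMSO level in all 4 comparisons, with the exception of A673 at 200 nM under the ribosomal protein scaling. The A673 libraries held 4.53 FPKM with DMSO, 10.1 FPKM at 50 nM and 4.83 FPKM at 200 nM. Those of SKNMC held 19.7, 40.6 and 30.5 FPKM. At 50 nM it rose 2.01-fold in each line on the FPKM + 1 scale (log2 change 1.01), which was above 99.7% of active genes in A673 and 99.6% in SKNMC. Both values sit at the 2-fold line, and with the ribosomal protein scaling they were 0.80 and 0.61. At 200 nM the change was 0.08 in A673, or -0.21 with that scaling. In SKNMC it was 0.60, above 97.4% of active genes, but 0.02 with the ribosomal protein scaling and 1.13, past 2-fold, with scaling to the 75th percentile. The change at 200 nM was larger in SKNMC than in A673 by 0.53, whereas 77.5% of genes above 1 FPKM in both lines differed by less. This difference was not tested.

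HEXIM2 went the other way. The A673 libraries had 2.15 FPKM with DMSO, 0.189 FPKM with 50 nM THZ1 and 0.380 FPKM with 200 nM. The SKNMC libraries had 2.32, 0.360 and 0.761 FPKM. The lowest level in both lines was thus at 50 nM, where the remaining level was 8.82% of DMSO in A673 and 15.5% in SKNMC. At 200 nM it was 17.7% and 32.8%. On the FPKM + 1 scale HEXIM2 fell at 50 nM, with log2 changes of -1.40 in A673 and -1.29 in SKNMC, and in A673 at 200 nM, with -1.19, and the value in SKNMC at 200 nM was -0.92, or -1.15 with the ribosomal protein scaling. With a pseudocount of 0.1 these became -2.96, -2.40, -2.23 and -1.49 in the same order. The depth of the libraries is unknown, so no counting interval can be set on these low levels. On the FPKM + 1 scale 6.97% and 19.5% of active genes had a lower value in A673 at 50 and 200 nM. In SKNMC 8.39% and 31.0% did.

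LARP7 and MEPCE were lower with THZ1 than with DMSO in all 4 comparisons. LARP7 was at 21.2 FPKM in A673 with DMSO, 8.94 FPKM at 50 nM and 12.2 FPKM at 200 nM. For SKNMC the levels were 20.7, 7.51 and 9.20 FPKM. As for HEXIM2, the lowest level was at the lower dose. LARP7 fell at 50 nM, with log2 changes of -1.16 in A673 and -1.35 in SKNMC, and in SKNMC at 200 nM, with -1.09, while the value in A673 at 200 nM was -0.75, or -1.07 with the ribosomal protein scaling. With scaling to the 75th percentile the A673 value at 50 nM was -0.94 and the SKNMC value at 200 nM was -0.60, neither of them 2-fold. With the deposited values 11.7% and 33.9% of active genes had a lower change than LARP7 in A673 at 50 and 200 nM. In SKNMC 7.28% and 23.6% did.

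MEPCE, the capping enzyme of 7SK, had the largest decrease of the 7 genes on the FPKM + 1 scale in each comparison, also under each of the 3 scalings, although at 50 nM a smaller part of the DMSO level was left for HEXIM2 in both lines. It went from 34.4 FPKM with DMSO in A673 to 6.16 FPKM at 50 nM and 5.19 FPKM at 200 nM. In SKNMC the levels were 42.6, 11.2 and 6.71 FPKM. It was the most abundant of the 7 genes with DMSO in both lines and lay below CDK9 in every THZ1 library. The log2 changes at 50 and 200 nM were -2.31 and -2.52 in A673 and -1.83 and -2.50 in SKNMC, or 17.9% and 15.1% of the DMSO level left in A673 and 26.4% and 15.8% in SKNMC. In A673 at 50 nM only 0.451% of active genes had a lower value, and in the other 3 comparisons 0.916% to 2.06% did. All 4 decreases stayed past 2-fold under the 3 scalings.

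Read over the whole set, 3 of the 7 genes decreased at least 2-fold in each comparison. In A673 at 50 nM these were MEPCE, HEXIM2 and LARP7, where 15.9% of the 11077 active genes decreased that much, and HEXIM1 alone increased, as did 0.343% of active genes. At 200 nM in A673 they were MEPCE, CCNT1 and HEXIM2, against 25.3% of active genes, and none increased, against 0.126%. In SKNMC at 50 nM they were MEPCE, LARP7 and HEXIM2, against 15.8% of 11896 active genes, and both CCNT2 and HEXIM1 increased, against 0.471%. In SKNMC at 200 nM they were MEPCE, CCNT1 and LARP7, against 27.3%, and none increased, against 0.462%. All 7 genes were active in both lines. These counts depend on the scaling. With the ribosomal protein genes 4 and 5 of the 7 decreased in A673 at 50 and 200 nM and 3 and 5 in SKNMC, against 21.3%, 34.5%, 28.0% and 51.1% of active genes. None increased, against 0.162%, 0.0451%, 0.151% and 0.0925% in the same order. With the 75th percentile 2 and 3 decreased in A673 and 3 and 2 in SKNMC, against 11.3%, 17.8%, 10.5% and 14.0%. HEXIM1 also increased in SKNMC at 200 nM with that scaling, against 3.88% of active genes. The increased share of the genes past 2-fold in SKNMC at 200 nM went from 1.67% to 21.8% with the 75th percentile and to 0.181% with the ribosomal protein genes. The median log2 change of the 7 genes was -0.90 and -0.87 in A673 and -0.60 and -0.92 in SKNMC at 50 and 200 nM, beside -0.27, -0.40, -0.32 and -0.55 over all active genes. A median says little of a set whose values ran from -2.31 to 1.01 in A673 at 50 nM. Both doses of a line share its DMSO library.

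**Figure D2:**
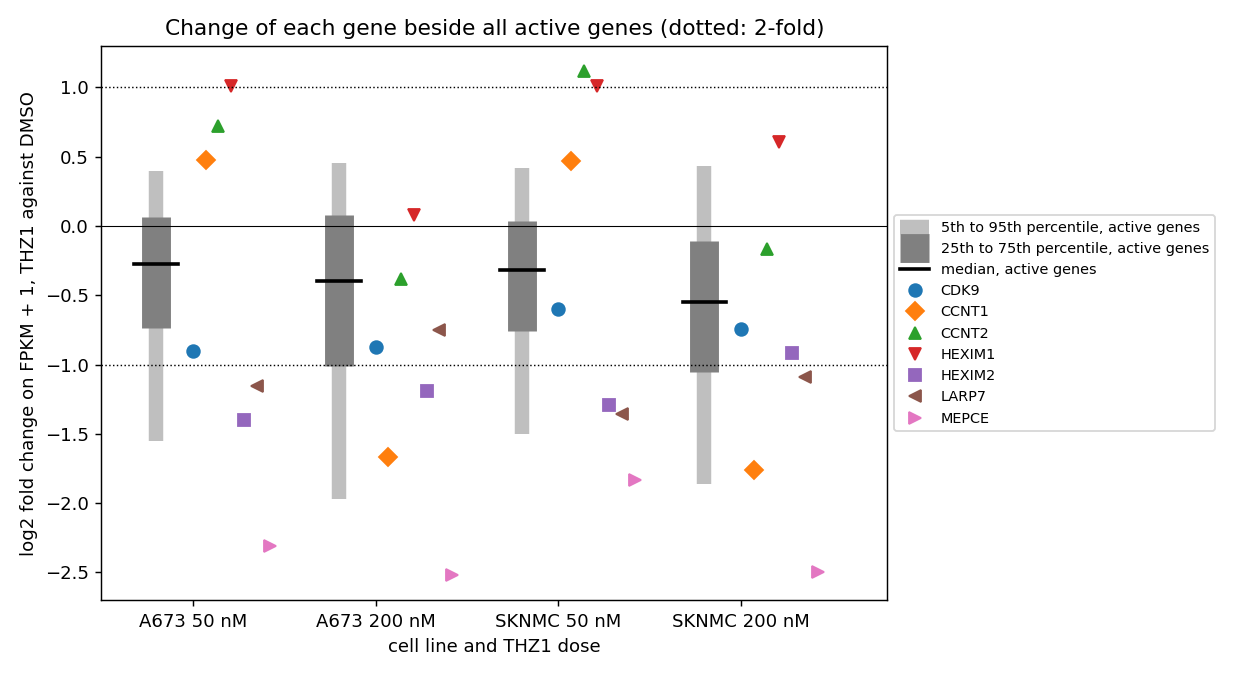
log2 fold change on FPKM + 1 (vertical axis) of the 7 genes in the 4 comparisons of THZ1 with DMSO (horizontal axis), 1 library per condition, beside the 5th to 95th percentile (light bar), 25th to 75th percentile (dark bar) and median (black line) of active genes, with dotted lines at 2-fold. At 50 nM HEXIM1 lies at 1.01 in both lines and MEPCE at -2.31 and -1.83, beyond the light bars on either side.

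The gap between the lines varied among the 7 genes. At 50 nM the log2 changes of CCNT1 and HEXIM1 differed between A673 and SKNMC by less than 0.01, and the largest gap was that of MEPCE at 0.47. Over the 10574 genes above 1 FPKM in both lines the median gap was 0.19 and the 95th percentile was 0.66. The gaps at 50 nM were larger than those of 86.2% of these genes for MEPCE, 79.8% for CCNT2, 69.1% for CDK9 and 50.3% for LARP7. At 200 nM the gaps ran from 0.02 for MEPCE to 0.53 for HEXIM1, with a median of 0.30 and a 95th percentile of 0.87 over all those genes. No gene of the 7 exceeded the 95th percentile at either dose, and all 7 had the same sign in both lines at each dose with the deposited values. The small gaps of CCNT1 and HEXIM1 at 50 nM depend on the settings. With the ribosomal protein scaling HEXIM1 was at 0.80 in A673 and 0.61 in SKNMC, and CCNT1 at 0.26 and 0.08. With a pseudocount of 0.1 HEXIM1 was at 1.14 and 1.04.

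Ratios within a library do not depend on how the library was scaled. The summed FPKM of HEXIM1 and HEXIM2 relative to CDK9 was 0.286 in the DMSO library of A673, then 0.856 at 50 nM and 0.424 at 200 nM. The SKNMC ratios were 1.09, 3.14 and 2.66. At 50 nM this inhibitor to kinase ratio was thus 2.99 times that with DMSO in A673 and 2.89 times in SKNMC, and at 200 nM it was 1.48 and 2.45 times. These are ratios of transcript levels, and protein was not measured. HEXIM1 relative to HEXIM2 went from 2.11 to 53.4 and 12.7 in A673 and from 8.48 to 112.9 and 40.0 in SKNMC, and the largest of these rest on HEXIM2 levels under 1 FPKM.

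The cyclin ratios followed the dose in another way. CCNT1 relative to CCNT2 was 1.10 in the DMSO library of A673, then 0.920 at 50 nM and 0.381 at 200 nM. For SKNMC these were 1.26, 0.788 and 0.362. The ratio was thus above 1 with DMSO and below 1 in each THZ1 library, but the A673 values with DMSO and at 50 nM lie close to 1, and without replicates it cannot be said which cyclin was the more abundant there. The sum of both cyclins relative to CDK9 was 0.990, 2.99 and 0.921 in A673 and 1.47, 4.07 and 1.35 in SKNMC, high at 50 nM and near the DMSO value at 200 nM. HEXIM1 relative to MEPCE was 0.131, 1.64 and 0.931 in A673 and 0.463, 3.62 and 4.54 in SKNMC.

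**Figure D3:**
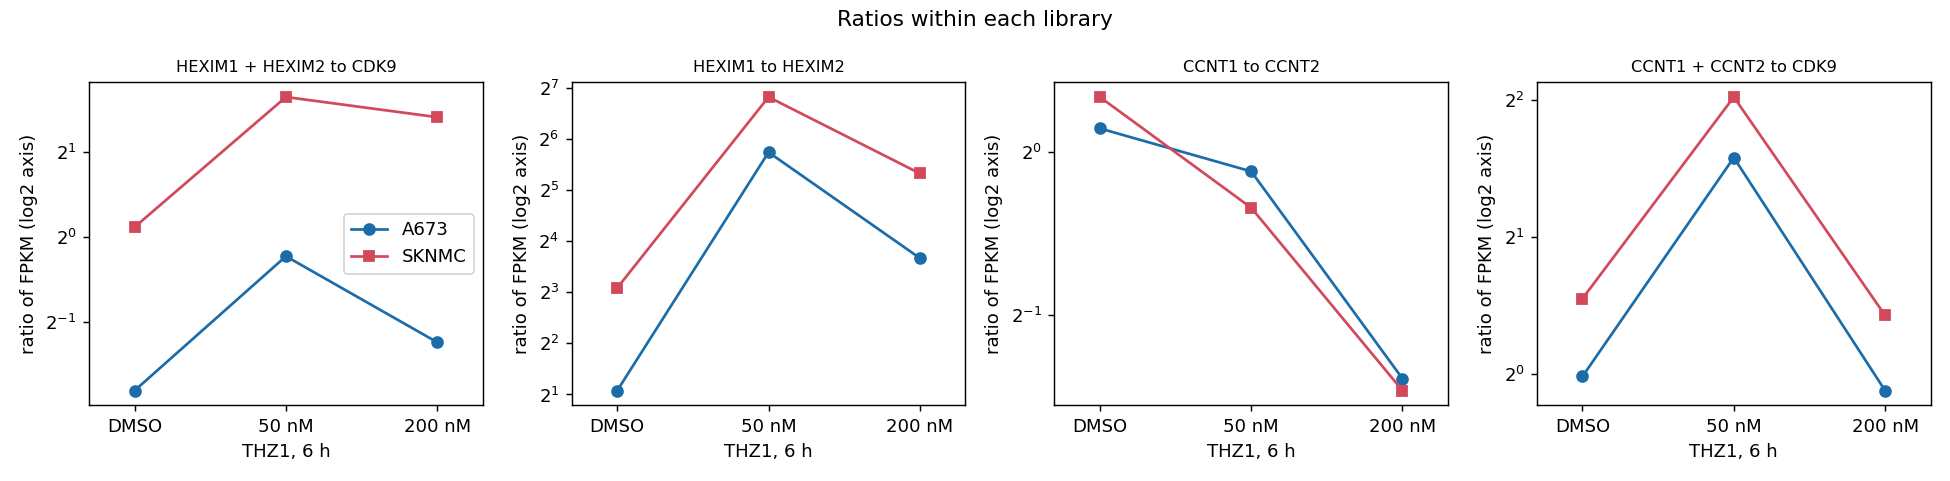
Ratio of FPKM within each library (vertical axes, log2 scale) for 4 pairs of genes or sums of genes in the DMSO, 50 nM and 200 nM THZ1 libraries of A673 (circles) and SKNMC (squares), 1 library per point. The HEXIM to CDK9 ratio peaks at 50 nM, at 0.856 in A673 and 3.14 in SKNMC, and the CCNT1 to CCNT2 ratio is lowest at 200 nM, at 0.381 and 0.362.

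The factors that work with P-TEFb were read from 7 lists with 39 genes, all active in both lines. In each line 1 of the 39 decreased at least 2-fold at 50 nM and 1 increased, and 10 decreased at 200 nM with none increased. Of all active genes 15.9% in A673 and 15.8% in SKNMC decreased that much at 50 nM and 25.3% and 27.3% at 200 nM, while 0.343% and 0.471% increased at 50 nM and 0.126% and 0.462% at 200 nM. With the ribosomal protein scaling 3 of the 39 decreased in A673 and 4 in SKNMC at 50 nM, against 21.3% and 28.0% of active genes. None increased at that dose, against 0.162% and 0.151%. At 200 nM 15 and 27 decreased with that scaling, against 34.5% and 51.1% of active genes. With the 75th percentile 8 and 3 decreased at 200 nM, against 17.8% and 14.0%. The median log2 change of the 39 genes was -0.09 and -0.41 in A673 and -0.06 and -0.74 in SKNMC at 50 and 200 nM. Among the 9 proteins that bind 7SK or release P-TEFb from it, JMJD6 fell in all 4 comparisons, with log2 changes of -1.55 and -1.82 in A673 and -1.82 and -1.78 in SKNMC. Its levels were 23.4, 7.33 and 5.89 FPKM in A673 and 13.0, 2.95 and 3.07 FPKM in SKNMC. None of the other 8 genes of that list reached 2-fold, although with the ribosomal protein scaling 4 of the 9 decreased in SKNMC at 200 nM.

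The BET proteins bind acetylated histones. BRD2 was at 95.4, 194.5 and 75.8 FPKM in A673 and at 110.4, 241.3 and 78.9 FPKM in SKNMC in order of dose, which is the shape seen for CCNT2. BRD2 rose at 50 nM, with log2 changes of 1.02 and 1.12, or 0.79 and 0.71 with the ribosomal protein scaling, which is short of 2-fold. At 200 nM BRD2 was at -0.33 in A673 and -0.48 in SKNMC, or 0.01 and 0.05 with scaling to the 75th percentile. With the ribosomal protein scaling these were -0.68 and -1.07, the latter past 2-fold. BRD3 fell at 200 nM, with -1.15 in A673 and -1.13 in SKNMC, but not past 2-fold with scaling to the 75th percentile, at -0.86 and -0.67.

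The super elongation complex joins P-TEFb to the ELL and AFF scaffold proteins. At 50 nM none of its 9 genes changed 2-fold in either line. Of active genes 15.9% in A673 and 15.8% in SKNMC decreased that much and 0.343% and 0.471% increased. In SKNMC 1 of the 9 decreased at 50 nM with the ribosomal protein scaling, against 28.0%, and 1 with a pseudocount of 0.1, against 22.5%. At 200 nM 2 decreased in A673 and 4 in SKNMC, against 25.3% and 27.3% of active genes. These became 6 and 8 with the ribosomal protein scaling, against 34.5% and 51.1%, and 1 and 0 with the 75th percentile, against 17.8% and 14.0%. At 200 nM AFF1 fell, with log2 changes of -1.30 in A673 and -1.06 in SKNMC, and ELL2 fell, with -1.20 and -1.19. With scaling to the 75th percentile ELL2 was at -0.97 and -0.92 and AFF1 in SKNMC at -0.56, all short of 2-fold.

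DSIF and NELF hold the paused polymerase and are substrates of CDK9. Of their 6 genes NELFA alone passed 2-fold, at 200 nM, with log2 changes of -1.83 in A673 and -1.33 in SKNMC. The latter was -0.85 with scaling to the 75th percentile, and NELFA also passed 2-fold at 50 nM with the ribosomal protein scaling, at -1.10 and -1.03. In the PAF1 complex, an elongation factor of 6 genes, 2 decreased in A673 and 1 in SKNMC at 200 nM, against 25.3% and 27.3% of active genes, and none was past 2-fold in both lines, whereas with the ribosomal protein scaling 2 decreased in A673 and all 6 in SKNMC, against 34.5% and 51.1%. RTF1 was at -1.44 in A673 and -0.90 in SKNMC at that dose, and PAF1 at -0.57 and -1.52.

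CDK7, the target of THZ1, was at 41.1, 26.4 and 9.57 FPKM in A673 and at 30.4, 22.0 and 6.33 FPKM in SKNMC. At 200 nM it fell, with log2 changes of -1.99 and -2.10, while its partners CCNH and MNAT1 stayed within 2-fold in all 4 comparisons, except in SKNMC at 200 nM with the ribosomal protein scaling, where both decreased past it. CDK12, a kinase of the elongating polymerase, fell at 200 nM, with -1.59 in A673 and -1.07 in SKNMC, the latter being -0.58 with scaling to the 75th percentile. Of the 3 genes of CDK12, CDK13 and cyclin K, 2 decreased in A673 and 1 in SKNMC at 200 nM, against 25.3% and 27.3% of active genes. None decreased at 50 nM, against 15.9% and 15.8%. At 200 nM all 3 decreased in both lines with the ribosomal protein scaling, against 34.5% and 51.1%, and 2 in A673 and 0 in SKNMC with the 75th percentile, against 17.8% and 14.0%.

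**Figure D4:**
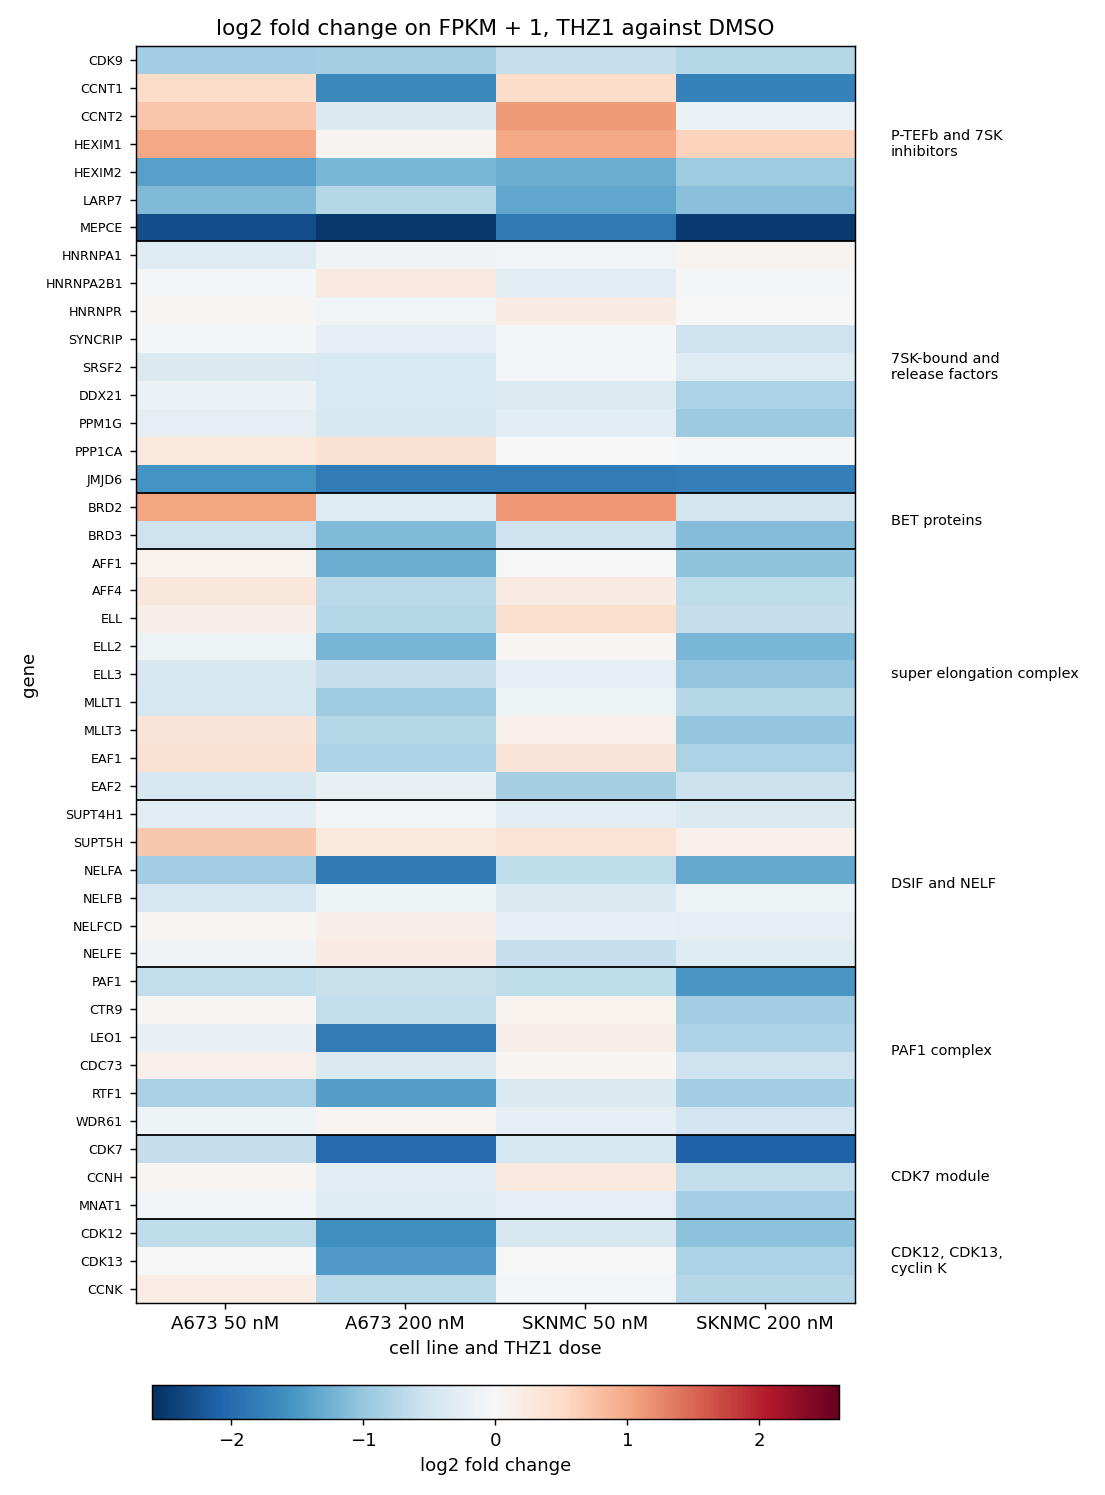
Colour map of the log2 fold change on FPKM + 1 (colour bar) of the 7 genes and of genes in 7 lists (rows) in the 4 comparisons of THZ1 with DMSO (columns), 1 library per condition. BRD2 is red at 50 nM, at 1.02 and 1.12, and pale blue at 200 nM, while MEPCE and JMJD6 are blue in all 4 columns.

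The genes most like each of the 7 in pattern were taken as those with the smallest Euclidean distance over the 4 log2 changes, among the 7952 that exceeded 5 FPKM with DMSO in both lines and were not listed at 0 anywhere. For HEXIM1 the 5 nearest were PNISR, ARGLU1, AKAP8L, PAXBP1 and ABCC5, at distances of 0.177 to 0.405. ARGLU1 had log2 changes of 1.02 and 0.08 in A673 and 1.01 and 0.38 in SKNMC at 50 and 200 nM. For CCNT1 they were CCRN4L, PPM1D and AHR, at 0.153 to 0.355, and for CCNT2 TMEM64, NAA16 and SLC16A1, at 0.244 to 0.310. PPM1D was at 0.42 and -1.83 in A673 and at 0.58 and -1.99 in SKNMC. MEPCE was nearest to TTC9C, ZNF672 and TOP3A, at 0.215 to 0.260. CDK9 was nearest to FMNL3, PACRGL and PIP4K2B, LARP7 to VPS4B, CDCA3 and PIP5K1C, and HEXIM2 to RP1-178F10.3, WDR73 and MUTYH, all at distances under 0.15. The FPKM + 1 scale understates the fall of HEXIM2, and its likeness to these more abundant genes depends on that scale: in A673 at 50 nM WDR73 went from 13.9 to 4.84 FPKM, whereas 8.82% of the DMSO level was left for HEXIM2. These lists depend on the measure: ranked by Pearson correlation over the 6 libraries, 1 gene was shared for CCNT1, which was PPM1D, and none for the other 6.

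Position and gene structure were set beside the values. CCNT1 and CCNT2 are the longest of the 7 genes, spanning 28435 bases at chr12:49082247-49110681 (minus strand) and 41108 bases at chr2:135675805-135716912 (plus strand), with 9 exons each. CDK9 spans 5109 bases at chr9:130547958-130553066 and MEPCE 5329 bases at chr7:100026413-100031741, both on the plus strand, with 7 and 4 exons. LARP7 spans 20629 bases at chr4:113558120-113578748 with 13 exons. HEXIM1 is without introns, and active protein-coding genes of 1 exon had a median log2 change at 50 nM of -0.87 in A673 (197 genes) and -0.72 in SKNMC (219 genes), against -0.26 and -0.31 for genes with more exons. Of the genes of 1 exon, 5 of 197 in A673 and 5 of 219 in SKNMC increased at least 2-fold at 50 nM, HEXIM1 among them. Of all active protein-coding genes 0.305% and 0.442% did.

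Neighbouring genes did not share the changes throughout. FPGS, 3810 bases from CDK9, had log2 changes of -0.05 and 0.06 in A673 and -0.23 and -0.27 in SKNMC at 50 and 200 nM. KANSL2, 6226 bases from CCNT1, was at -0.32 and -1.69 in A673 and at -0.09 and -1.69 in SKNMC, so that it shared the fall at 200 nM and not the higher value at 50 nM. PPP1R35, 1164 bases from MEPCE on the other strand, was at -1.02 and -0.57 in A673 and at -1.21 and -1.26 in SKNMC. C4orf21, which overlaps LARP7 on the other strand, was at -0.46 and -0.99 in A673 and at -0.03 and -0.01 in SKNMC. ZCWPW1, which overlaps MEPCE on the other strand, was below 1 FPKM in every library. ACBD4, 3136 bases from HEXIM1, was below 1 FPKM in A673 and at -0.96 and -0.21 in SKNMC. Whether reads were counted by strand is not given in the sources used here, and without strand a gene and its antisense partner cannot be told apart. In GENCODE, antisense lncRNA exons cover 520 of 3625 bases of the HEXIM1 transcript, 1021 of 1436 of HEXIM2 and 839 of 2107 of LARP7, and another annotated gene on the same strand shares 2027 of 2822 exon bases of MEPCE.

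Other motifs were searched on both strands over the 250 bases before a RefSeq start of each of the 7 genes. These windows are not all outside the genes: those of CCNT1, CCNT2 and CDK9 lie wholly in annotated exons of the same gene, with 236 coding bases for CDK9. The LARP7 window has 66 bases in its own exons and 103 in those of ZGRF1, and the MEPCE window has 222 in exons of ZCWPW1. Of these motifs, CCGGAAGT was present for CCNT1 and CDK9, against 3.42% of RefSeq promoters, CACGTG for CCNT1, against 6.34%, and TGACGTCA for LARP7, against 1.65%. CCAAT, found in 32.0% of promoters, was present for 5 of the 7, all but CDK9 and HEXIM2. TATAAA, found in 10.7%, was present for HEXIM1 alone, and GGAAGGAA, found in 3.06% of promoters, for none. The motifs do not overlap each other in these windows. The 3 genes with higher values at 50 nM, CCNT1, CCNT2 and HEXIM1, share CCAAT among these motifs, as do LARP7 and MEPCE, which were lower.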

How the data were processed

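RNA-seq values of 6 libraries were analysed, 1 for each of 2 cell lines with DMSO, 50 nM or 200 nM THZ1 for 6 h, grouped by the sample labels. The authors deposited FPKM values for 20311 protein-coding and 7109 lincRNA genes. Their methods name paired-end reads aligned to hg19 with STAR, an Ensembl annotation and StringTie, whereas the submitters' processing notes name STAR and Cufflinks, so which program made the FPKM is unsure; versions of these programs are not given in the sources used here. The deposited table is titled as average expression, but the labels give 1 library per condition. Its 4 columns of log2 fold changes of THZ1 against DMSO, the authors' own comparisons, were not used. FPKM holds no read counts. The most frequent ratio of low values to those of the DMSO library took in 1.85% to 2.62% of genes with low values, so the depth is unknown.

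Changes are log2 ratios of FPKM + 1, active genes had over 1 FPKM in the DMSO library of the line, and changed genes passed 2-fold. Named genes were the 7 members, in each list those past 2-fold in the same direction in both lines at 1 dose (at most 4; otherwise the 2 with the largest mean change), and the nearest genes in pattern. Other genes were named from their values. Other list genes enter the counts and medians, and 1 list gene and 1 marker are not reported here by name. The members and lists were chosen with earlier results of these data known, and the motifs after the sequences were seen. Deposited starts count from 0 (14261 of 26108 starts lie 1 base below GENCODE, and 14342 ends are equal) and are given from 1. Python 3.11.15, pandas 2.3.3 and numpy 2.4.6 were used. The steps were tested on simulated data. Alternatives were a pseudocount of 0.1, a 1.5-fold threshold, other filters, a common sum, the 75th percentile of genes active in both lines and the median of 83 ribosomal protein genes.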

Additional observations from a re-analysis of the deposited data

How the results depend on the processing

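Of the 112 member log2 changes recomputed under 4 alternatives, 97 stayed on their side of the 2-fold line and moved by less than 1.5-fold, all 28 under a common sum among them. The sign turned for 2 of these small changes, HEXIM1 in A673 at 200 nM (-0.21 with ribosomal protein genes) and CCNT2 in SKNMC at 200 nM (0.33 with the 75th percentile). Scaling to the 75th percentile moved the median of active genes by 0.21 and 0.30 in A673 and by 0.24 and 0.45 in SKNMC at 50 and 200 nM, and scaling to ribosomal protein genes by -0.19, -0.29, -0.34 and -0.47. Which is closest to RNA per cell cannot be told apart here. The cause was not tested for any change below. A fit of dose with the line as a block was not made. Without counts, the limit set by depth is unknown.

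With the 75th percentile, LARP7 was at -0.94 in A673 at 50 nM and -0.60 in SKNMC at 200 nM, and HEXIM1 at 1.13 in SKNMC at 200 nM, so 1 member increased there. The share of active genes increased 2-fold became 0.731% and 0.822% in A673 and 1.15% and 3.88% in SKNMC, and the share decreased 11.3% and 17.8% in A673 and 10.5% and 14.0% in SKNMC. Decreased genes at 200 nM became 0 for BET proteins in both lines, 1 for the super elongation complex in A673 and 0 in SKNMC, and in SKNMC 0 for DSIF and NELF, 0 for CDK12, CDK13 and cyclin K and 3 for all 39 genes of the lists.

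With ribosomal protein genes, CDK9 was at -1.11 and -1.20 in A673 and -1.29 in SKNMC at 200 nM, LARP7 at -1.07 in A673 at 200 nM and HEXIM2 at -1.15 in SKNMC at 200 nM. HEXIM1 at 50 nM was 0.80 in A673 and 0.61 in SKNMC and CCNT2 in SKNMC 0.72, leaving 0 members increased at 50 nM in either line, and 5 decreased at 200 nM in each. Active genes increased became 0.162% and 0.0451% in A673 and 0.151% and 0.0925% in SKNMC, and those decreased 21.3% and 34.5% in A673 and 28.0% and 51.1% in SKNMC. Decreased genes in SKNMC at 200 nM became 4 of the 7SK-bound and release factors, 2 BET proteins, 3 of the CDK7 module, 3 of CDK12, CDK13 and cyclin K, 6 of the PAF1 complex and 8 of the super elongation complex, with 6 of the latter in A673. At 50 nM 1 gene decreased in DSIF and NELF and 1 in the PAF1 complex in each line and 1 in the super elongation complex in SKNMC, and 0 BET proteins increased in either line. Over all 39 genes 3 decreased in A673 and 4 in SKNMC at 50 nM and 27 in SKNMC at 200 nM, and 0 increased at 50 nM in either line.

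With a 1.5-fold threshold 5 members decreased at 200 nM in each line, 2 increased in A673 at 50 nM and 1 in SKNMC at 200 nM. In SKNMC at 200 nM 3 of the 7SK-bound and release factors, 3 of the CDK7 module, 3 of CDK12, CDK13 and cyclin K, 4 of the PAF1 complex and 8 of the super elongation complex decreased, and 8 of the latter in A673. At 50 nM in A673 1 gene decreased in the CDK7 module, 1 in CDK12, CDK13 and cyclin K, 1 in DSIF and NELF and 2 in the PAF1 complex, and 1 of DSIF and NELF increased. In SKNMC at 50 nM 2 of DSIF and NELF, 1 of the PAF1 complex and 1 of the super elongation complex decreased. Over all 39 genes 6 and 18 decreased in A673 and 5 and 23 in SKNMC at 50 and 200 nM, and 2 increased in A673 at 50 nM. Of all active genes 31.8% and 41.1% in A673 and 33.5% and 48.0% in SKNMC decreased this much at 50 and 200 nM, and 1.78%, 1.70%, 2.43% and 2.81% increased.

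With a pseudocount of 0.1 HEXIM2 was at -2.96 and -2.23 in A673 and -2.40 and -1.49 in SKNMC, and the decreased genes of the super elongation complex were 4 in A673 at 200 nM and 1 in SKNMC at 50 nM, where 2 of all 39 decreased. The share of active genes decreased was then 21.6% and 31.1% in A673 and 22.5% and 34.3% in SKNMC at 50 and 200 nM, and the share increased 0.542%, 0.352%, 0.773% and 0.782%. Without a filter on low values the share decreased was 6.41% and 10.2% in A673 and 6.84% and 11.8% in SKNMC, and the share increased 0.252% in A673 at 200 nM and 0.299% in SKNMC at 50 nM. Above 5 FPKM the share increased in SKNMC at 200 nM was 0.221%. The scalings, pseudocount and 1.5-fold threshold for these shares and the alternatives for the step from 50 to 200 nM were chosen after seeing the data.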
